A study of Mus musculus with 6 samples.

Results

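The enzymes and carriers that take glucose to lactate, together with the pentose phosphate branch, were followed in mouse eosinophils treated with activated Th2 cell extracellular vesicles (EVs). The set held 33 genes of the 16254 listed in the count table. They were chosen by gene symbol as glucose and lactate transporters, glycolytic enzymes and pentose phosphate enzymes, with the pyruvate dehydrogenase kinases Pdk1 and Pdk3. Some genes of these classes, such as Slc16a7, were outside the set. The selection rule uses no measured value, but the members were proposed with earlier results of these data known. Eosinophils of C57BL/6 mice had been grown from bone marrow, first with FLT3 ligand and stem cell factor and then with IL-5. They were treated for 24 h with 5e9 EVs per ml purified from activated Th2 cell cultures (n = 3) or with an equal volume of sham control, medium never exposed to cells and taken through the same purification (n = 3). The labels give no allele or agent beyond these, and the cells were a culture-grown model rather than tissue eosinophils. The authors list no IL-5 for the treatment step, so the sham group cannot be taken as an IL-5-fed baseline. The viability of the sequenced samples is not given in the sources used here. The labels call the 3 samples of a group biological replicates without naming animals, so that p-values measure the spread between these samples.

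Glycolysis splits glucose into pyruvate in the cytosol with a net gain of ATP. Pyruvate is then either reduced to lactate and exported, or oxidized in mitochondria. The pentose phosphate branch leaves the pathway at glucose-6-phosphate, makes NADPH and ribose, and feeds carbon back at the level of fructose-6-phosphate and glyceraldehyde-3-phosphate. Granulocytes rely heavily on glycolysis for ATP, and their oxidase uses NADPH. Most steps have several isozymes, encoded by separate genes with different tissue distributions.

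EV-treated eosinophils had higher transcript levels of both glucose transporters, of hexokinases Hk1 and Hk2, and of Pfkp, Aldoc, Gapdh, Eno1, Ldha, the lactate transporter Slc16a3 and the kinase Pdk3, whereas Eno2, Ldhb and Pgd were lower. Of the 33 members, 11 rose (33.3%), 3 fell (9.09%) and 19 did not pass the edgeR quasi-likelihood test at an adjusted p below 0.01. Across the 13498 genes tested, 12.1% were called higher, 11.6% lower and 23.7% in either direction. The median log2 fold change of the members, EV over sham, was 0.14, against -0.014 for all genes tested. When the absolute log2 fold change also had to reach 1, 3 members were higher (Aldoc, Slc16a3 and Pdk3), against 3.1% of all genes, and 2 were lower (Eno2 and Ldhb), against 6.35%. In 17 members (51.5%) all EV-treated samples lay above all sham-treated samples and in 4 (12.1%) they lay below, leaving 12 whose groups overlapped. The same separation was seen above in 24.8%, below in 24.7% and in either direction in 49.6% of all genes tested. Without scaling between libraries beyond their totals, the median of all genes moved to -0.163 and that of the members to -0.0073, so that the members lay 0.155 above the median of all genes with either scaling. The member calls were then 9 higher and 4 lower, and the calls over all genes 1036 higher and 2342 lower, against 1632 and 1572 with scaling.

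**Figure D1:**
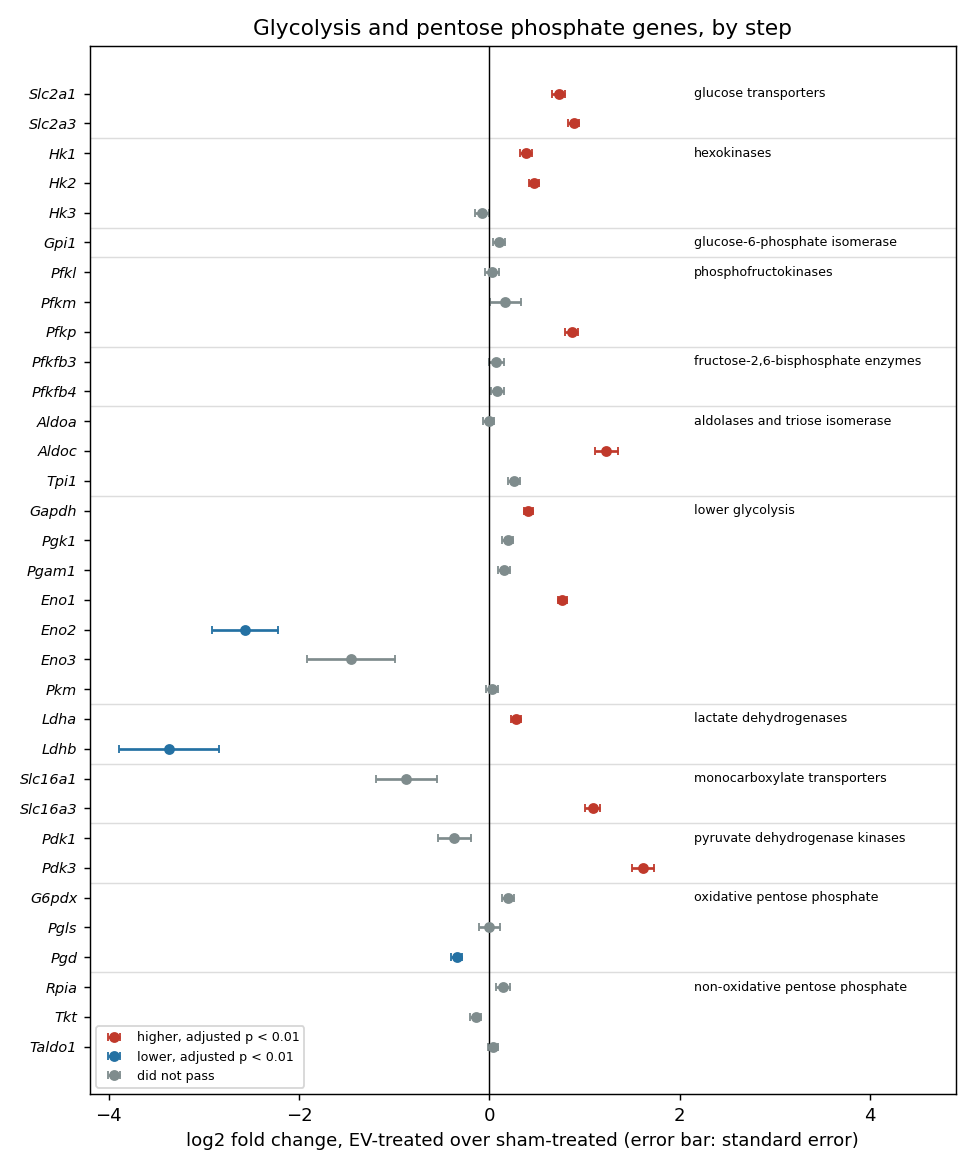
Log2 fold change of each of the 33 members in EV- versus sham-treated eosinophils (horizontal axis), ordered by step from glucose entry to the pentose phosphate branch, with the standard error as the bar. Red and blue points passed an adjusted p under 0.01 and grey points did not; each red point among the isozyme groups has a grey or blue neighbour except at the glucose transporters.

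Library totals ran from 23697620 to 37874426 counts. Normalized counts are these estimated read counts divided by each library's TMM-scaled total, relative to the geometric mean of the 6 libraries, and levels per kilobase divide them further by transcript length. All 11 eosinophil markers averaged at least 2579 normalized counts in sham-treated samples, where Gata1 was the lowest. Of these, 8 were higher in EV-treated samples, with sums of 930213 to 1172124 normalized counts in sham- and 1329200 to 1486135 in EV-treated samples. Of 10 macrophage markers, 9 were lower in EV-treated samples, and the tenth, Adgre1, which mouse eosinophils also express, was higher. The sum of the other macrophage markers was 24040, 40705 and 37698 in sham replicates 1 to 3 and 7520, 10146 and 10291 in EV replicates 1 to 3. T cell markers summed to 1373 to 2721 in sham- and 344 to 557 in EV-treated samples, a sum carried by Cd28 and Il7r, which were lower. The other T cell genes in the table, Cd3d, Cd3g, Cd4, Lck and Trac, averaged at most 48.4 in either group, and Cd3d, the only one of them tested, did not pass. Of the 6 basophil and mast cell markers tested, 4 were higher. Of 9 neutrophil markers 5 were lower and 2 higher, 1 of 4 proliferation markers (Top2a) was higher, and no erythroid marker passed. In bulk RNA, fewer cells of a type and less RNA per cell cannot be told apart.

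At the enolase and lactate dehydrogenase steps, isozymes of one step were called in opposite directions. The upstream sequences of these 4 genes are shown because of these opposite calls. HIF dimers bind DNA through the core words ACGTG and GCGTG, which are marked because Hif1a transcripts were also higher. HIF activity was not measured. Each is the 250 bases before a transcription start (RefSeq, GRCm38.p6), read 5′ to 3′ on the gene's strand, with matches to either word on either strand in capitals. Where RefSeq lists several starts, the window with the most matches is shown, and the first of 2 windows with equal numbers for Eno1. RefSeq lists 3 windows for Eno1, 2 for Ldha and 1 each for Eno2 and Ldhb, so this rule favours matches in Eno1 and Ldha. The Ldha window not shown has 1 match, and those of Eno1 have 1 and 2. The numbers of matches are therefore not compared between the genes. The Eno1 window is chr4:150236947-150237196 on the plus strand, with 2 matches. Eno2 is chr6:124769674-124769923 on the minus strand, with 0 matches. Ldha is chr7:46845554-46845803 on the plus strand, with 5 matches, some of which overlap. Ldhb is chr6:142507958-142508207 on the minus strand, with 1 match.
Eno1: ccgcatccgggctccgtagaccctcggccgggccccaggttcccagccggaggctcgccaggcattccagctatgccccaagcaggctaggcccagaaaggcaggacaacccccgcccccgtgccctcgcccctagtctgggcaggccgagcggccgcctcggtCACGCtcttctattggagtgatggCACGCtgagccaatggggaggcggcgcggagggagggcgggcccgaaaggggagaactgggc
Eno2: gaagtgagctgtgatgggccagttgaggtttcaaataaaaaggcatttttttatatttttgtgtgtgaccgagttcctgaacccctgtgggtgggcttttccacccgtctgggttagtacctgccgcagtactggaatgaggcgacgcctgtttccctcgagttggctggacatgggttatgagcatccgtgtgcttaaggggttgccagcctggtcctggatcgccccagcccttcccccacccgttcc
Ldha: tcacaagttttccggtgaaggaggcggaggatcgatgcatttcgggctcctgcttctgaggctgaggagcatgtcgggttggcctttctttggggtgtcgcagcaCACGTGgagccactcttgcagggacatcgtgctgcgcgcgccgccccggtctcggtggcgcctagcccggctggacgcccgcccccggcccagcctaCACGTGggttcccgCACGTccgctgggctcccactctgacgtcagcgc
Ldhb: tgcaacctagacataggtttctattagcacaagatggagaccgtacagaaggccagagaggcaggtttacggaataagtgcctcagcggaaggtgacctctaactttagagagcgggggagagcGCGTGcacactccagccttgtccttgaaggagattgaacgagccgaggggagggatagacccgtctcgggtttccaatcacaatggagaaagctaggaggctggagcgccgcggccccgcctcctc

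A match to these words is a description of the sequence and not of binding. RefSeq gave a promoter for 32 of the 33 members, in 46 windows, and all words were counted in the 250 bases before each start. ACGTG occurred in 13 of the 32 members (40.6%), against 24.5% of the 9999 tested genes with a promoter, and in 16 of the 46 member windows (34.8%), against 21.02% of windows of tested genes and 16.6% of all 32851 promoters. GCGTG occurred in 23 of the 32 members (71.9%), against 48.7% of tested genes. By window it occurred in 27 of the 46 member windows (58.7%), against 43.2% of windows of tested genes and 28.2% of all promoters. A gene was counted when any of its windows held the word. Both words contain CG, and these shares were not matched for the base composition of the windows. Among the 10 members that rose and had a promoter, 5 held ACGTG (50.0%), and among the other 22 members 8 did (36.4%). For GCGTG the numbers were 8 of the 10 (80.0%) and 15 of the 22 (68.2%). The longer word CACGTG, which contains ACGTG and is read by MYC and related factors, was present in 4 members (12.5%) and 9.501% of tested genes. The STAT word TTCNNNGAA was present in 2 members (6.25%) and 7.27% of tested genes.

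Glucose entry showed the same direction for both carriers. Slc2a1, encoding the widely expressed transporter GLUT1, had 3126, 2805 and 2689 normalized counts in the sham-treated samples and 4683, 4800 and 4813 in the EV-treated samples. Slc2a3, encoding the high-affinity transporter GLUT3, had 16835, 15208 and 15508 in sham- and 29096, 30216 and 28501 in EV-treated samples. For both genes, every EV-treated sample lay far above the highest sham-treated sample, and the samples within a group were close together. The log2 fold change was 0.73 for Slc2a1 (standard error 0.0698, adjusted p = 2.61e-05) and 0.88 for Slc2a3 (standard error 0.0571, adjusted p = 2.04e-06), both from edgeR. Normalized to transcript length, Slc2a3 made up 82.0% ± 0.554 (SD, n = 3) of the pair in sham- and 83.5% ± 0.447 in EV-treated samples.

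Hexokinases trap glucose in the cell as glucose-6-phosphate. The mitochondria-bound forms Hk1 and Hk2 rose and the myeloid form Hk3 did not pass. Hk1 had 5231, 5400 and 4855 normalized counts in sham- and 6849, 6653 and 6753 in EV-treated samples, a log2 fold change of 0.39 (adjusted p = 0.000677, edgeR). Hk2 had 10312, 9612 and 10424 in sham- and 13748, 14173 and 14048 in EV-treated samples, a log2 fold change of 0.47 (adjusted p = 9.7e-05, edgeR). The groups did not overlap for either gene. Hk3 ranged from 5793 to 6812 in sham- and from 5870 to 6181 in EV-treated samples, so that its EV-treated samples lay within the sham range (log2 fold change -0.077, SE 0.0699, adjusted p = 0.435, edgeR). Per kilobase, Hk3 made up 38.4% ± 2.32 of the 3 hexokinases in sham- and 30.5% ± 0.629 in EV-treated samples (SD, n = 3), and Hk2 35.6% ± 2.17 and 41.1% ± 0.745. Hk1 missed the threshold without scaling between libraries (log2 fold change 0.24, adjusted p = 0.0112, edgeR).

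Gpi1, which turns glucose-6-phosphate into fructose-6-phosphate, spanned 50502 to 58165 normalized counts in sham- and 56036 to 60358 in EV-treated samples (log2 fold change 0.10, SE 0.0618, adjusted p = 0.233, edgeR). Its groups overlapped.

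Phosphofructokinase catalyses the committed step and occurs as liver (Pfkl), muscle (Pfkm) and platelet (Pfkp) forms. Pfkp had 1555, 1789 and 1631 normalized counts in sham- and 2984, 3084 and 2982 in EV-treated samples, a log2 fold change of 0.86 ± 0.0708 (SE, edgeR adjusted p = 9.31e-06). Pfkl had 2564, 2288 and 2435 in sham- and 2325, 2661 and 2454 in EV-treated samples. Pfkm had 220, 227 and 190 in sham- and 230, 250 and 235 in EV-treated samples. The Pfkp groups were wide apart, those of Pfkl overlapped, and those of Pfkm were separated by a narrow margin without passing the test (adjusted p = 0.797 for Pfkl and 0.468 for Pfkm, edgeR). Per kilobase, Pfkl was the most abundant form in every sham-treated sample and Pfkp in every EV-treated sample. The share of Pfkp in the family went from 35.6% ± 2.74 to 49.4% ± 1.21 (SD, n = 3) and that of Pfkl from 57.9% ± 2.97 to 45.03% ± 1.20. Pfkfb3 and Pfkfb4 make or remove fructose-2,6-bisphosphate, the strongest activator of phosphofructokinase. Their log2 fold changes of 0.073 and 0.084 did not pass (adjusted p = 0.524 and 0.387, edgeR), with levels of 2820 to 3399 and 1460 to 1635 normalized counts over all 6 samples.

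Aldolase splits the 6-carbon sugar into trioses. Aldoc, the isoform best known from brain, had 264, 241 and 269 normalized counts in sham- and 609, 621 and 586 in EV-treated samples, a log2 fold change of 1.23 ± 0.122 (SE, edgeR adjusted p = 3.29e-05). Aldoa, the ubiquitous isoform and per kilobase the most abundant member in both groups, had 67068, 60337 and 65448 in sham- and 62537, 61811 and 67419 in EV-treated samples. The Aldoa groups overlapped (log2 fold change -0.0082, SE 0.0576, adjusted p = 0.931, edgeR). Despite its 2.35-fold rise, Aldoc remained 0.512% of aldolase transcripts per kilobase in EV-treated samples, against 0.217% in sham-treated samples. Tpi1, which interconverts the trioses, ranged from 4730 to 5381 in sham- and 5903 to 6278 in EV-treated samples. The Tpi1 groups did not overlap, and the adjusted p of 0.0114 (log2 fold change 0.26, edgeR) lay just outside the threshold. Of the 6 fits with 1 sample left out, 1 passed, that without sham replicate 2 (adjusted p = 0.00883), and the others reached up to 0.0553. Without scaling between libraries the log2 fold change of Tpi1 was 0.11 (adjusted p = 0.235, edgeR).

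In lower glycolysis, Gapdh and Eno1 rose and Eno2 fell. Gapdh, which oxidizes glyceraldehyde-3-phosphate and is often used as a reference gene, had 33938, 36493 and 36165 normalized counts in sham- and 45775, 48041 and 47797 in EV-treated samples (log2 fold change 0.41, SE 0.0508, adjusted p = 0.00015, edgeR). Eno1, the ubiquitous enolase, had 28354, 27426 and 29155 in sham- and 46410, 48633 and 49606 in EV-treated samples (log2 fold change 0.77, SE 0.0508, adjusted p = 2.44e-06, edgeR). Both genes showed clear gaps between the groups, and Eno1 moved from the sixth to the fourth place among the members per kilobase. Pgk1, which makes ATP, ranged from 8565 to 9507 in sham- and 10187 to 10734 in EV-treated samples, and Pgam1, a mutase, from 11397 to 12979 and 13235 to 14279. Neither passed in spite of groups that did not overlap (adjusted p = 0.0296 for Pgk1 and 0.082 for Pgam1, edgeR). Pkm, the pyruvate kinase, spanned 53334 to 59621 in sham- and 54874 to 60206 in EV-treated samples, which overlapped (adjusted p = 0.776, edgeR).

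The other enolases were scarce and went the other way. Eno2, the neuronal enolase, had 130, 172 and 111 normalized counts in sham- and 26.0, 25.7 and 17.4 in EV-treated samples, whose Eno2 reads numbered only 20 to 30. Eno3, the muscle enolase, had 145, 74.8 and 98.4 in sham- and 53.9, 17.1 and 45.3 in EV-treated samples. In both genes every EV-treated sample was below every sham-treated sample. The log2 fold change was -2.57 for Eno2 (SE 0.347, edgeR adjusted p = 0.000264) and -1.46 for Eno3 (standard error 0.462), which did not pass (adjusted p = 0.0328, edgeR). Per kilobase, Eno1 made up 99.2% of enolase transcripts in sham- and 99.9% in EV-treated samples.

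**Figure D2:**
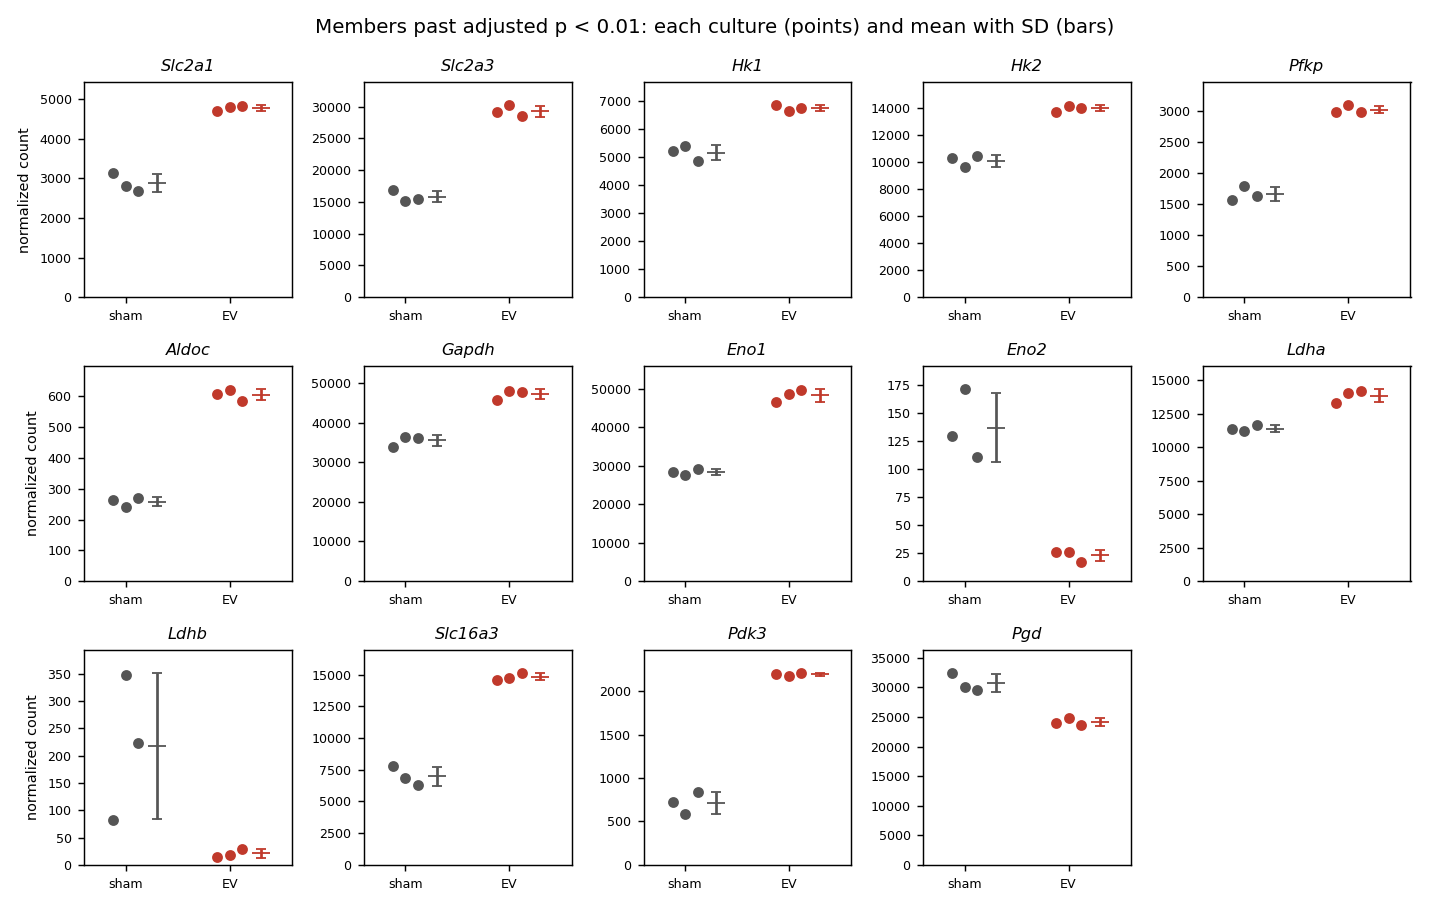
Normalized counts (vertical axes, from 0) of the 14 members past an adjusted p under 0.01 in the 3 sham-treated (grey) and 3 EV-treated (red) samples, with the mean and SD beside the points. The groups are separate in all 14 panels, and the sham-treated samples of Ldhb range from 82.0 to 348.

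Lactate dehydrogenase interconverts pyruvate and lactate. Ldha, encoding the muscle-type subunit, had 11315, 11165 and 11668 normalized counts in sham- and 13274, 14074 and 14158 in EV-treated samples (log2 fold change 0.28, SE 0.0532, adjusted p = 0.0023, edgeR). Ldhb, encoding the heart-type subunit, had 82.0, 348 and 224 in sham- and 14.0, 18.9 and 29.6 in EV-treated samples (log2 fold change -3.37, SE 0.526, adjusted p = 0.000699, edgeR). The Ldha groups were close but separate, whereas the lowest sham-treated sample for Ldhb was still well above the highest EV-treated one. Ldha transcripts made up 97.5% ± 1.54 of the pair per kilobase in sham- and 99.8% ± 0.0722 in EV-treated samples (SD, n = 3). Ldha missed the threshold without EV replicate 2 (adjusted p = 0.0165, edgeR), without EV replicate 3 (adjusted p = 0.0148) and without scaling between libraries (log2 fold change 0.13, adjusted p = 0.0582), and Ldhb missed it with limma-voom (adjusted p = 0.0235).

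Monocarboxylate transporters move lactate across the plasma membrane. Slc16a3, encoding MCT4, which is known for lactate export from glycolytic cells, had 7787, 6852 and 6302 normalized counts in sham- and 14595, 14747 and 15131 in EV-treated samples. The gap between the groups was far wider than the spread within them, with a log2 fold change of 1.09 ± 0.0762 (SE, edgeR adjusted p = 3.5e-06). Slc16a1, encoding MCT1, had 113, 176 and 279 in sham- and 118, 87.4 and 104 in EV-treated samples. These groups overlapped through sham replicate 1 (log2 fold change -0.87, adjusted p = 0.0585, edgeR). Of the 6 fits with 1 sample left out, 1 passed, that without sham replicate 1 (log2 fold change -1.14, adjusted p = 0.00811), and the smallest change was that without sham replicate 3 (log2 fold change -0.47, adjusted p = 0.241). Slc16a3 made up 97.3% ± 1.39 of the pair per kilobase in sham- and 99.3% ± 0.104 in EV-treated samples (SD, n = 3).

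Pyruvate dehydrogenase kinases inhibit the entry of pyruvate into mitochondrial oxidation. Pdk3 had 724, 586 and 837 normalized counts in sham- and 2204, 2179 and 2206 in EV-treated samples, the highest fold change among the members (log2 fold change 1.62, SE 0.115, adjusted p = 3.79e-06, edgeR). Pdk1 had 505, 754 and 495 in sham- and 428, 509 and 420 in EV-treated samples. Pdk3 was 3.07-fold higher with very little spread among EV-treated samples, whereas the Pdk1 groups overlapped (adjusted p = 0.135, edgeR). Pdk3 accounted for 74.7% ± 7.98 of the pair per kilobase in sham- and 92.3% ± 0.832 in EV-treated samples (SD, n = 3). Of the kinases outside the members, Pdk2 did not pass (adjusted p = 0.760, edgeR). Pdk4 was called lower (log2 fold change -4.42, adjusted p = 0.00773, edgeR), from 35.8 ± 22.0 to 1.62 ± 2.10 normalized counts (SD, n = 3). At these low counts Pdk4 missed the threshold with limma-voom (adjusted p = 0.0131).

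The pentose phosphate branch, with 3 members in each arm, held no member that rose and 1 that fell. Of all genes tested, 12.1% were called higher and 11.6% lower, and counts of so few members cannot be told apart from these shares. Pgd, the 6-phosphogluconate dehydrogenase that makes the second NADPH of the oxidative arm, had 32441, 30118 and 29516 normalized counts in sham- and 24019, 24817 and 23635 in EV-treated samples. Every EV-treated sample was below every sham-treated one (log2 fold change -0.35, SE 0.0544, adjusted p = 0.000732, edgeR). G6pdx, the glucose-6-phosphate dehydrogenase that opens the branch, ranged from 7930 to 9247 in sham- and 9478 to 10021 in EV-treated samples, separate groups that did not pass (log2 fold change 0.20, adjusted p = 0.0415, edgeR). Pgls, the lactonase between them, had overlapping ranges of 1064 to 1358 and 1142 to 1354. In the non-oxidative arm, Rpia, Tkt and Taldo1 overlapped between the groups, with log2 fold changes of 0.14, -0.14 and 0.037 (adjusted p = 0.169, 0.0936 and 0.636, edgeR). Without scaling between libraries, Tkt, a transketolase, was called lower (log2 fold change -0.29, adjusted p = 0.00157). The summed counts of the oxidative arm, not divided by length, were 39112 to 42210 in sham- and 35010 to 35437 in EV-treated samples. This lower sum was carried by Pgd, which averaged 30692 of 40481 in sham- and 24157 of 35197 in EV-treated samples. The sums of the non-oxidative arm were 62462 to 68259 and 61211 to 66102.

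Ratios between isozymes within a sample do not depend on how libraries are scaled to each other. Of 15 pairs, 11 did not overlap between the groups, 6 with the ratio higher and 5 with it lower in EV-treated samples. Some genes enter more than 1 pair, so the pairs are not independent. Of all single genes tested, 49.6% did not overlap, and no such share was computed for ratios of other gene pairs. An exact two-sided permutation test of 3 against 3 cannot give a p under 0.1, the value for each of these pairs, and 0.136 after Benjamini-Hochberg adjustment over the 15. The log2 ratio of Pfkp to Pfkl went from -0.55 ± 0.18 to 0.28 ± 0.074 (SD, n = 3), crossing 0 in every sample. Pdk3 to Pdk1 went from 0.30 ± 0.59 to 2.28 ± 0.16, and Slc16a3 to Slc16a1 from 5.29 ± 0.81 to 7.17 ± 0.22. The Ldhb to Ldha ratio went from -5.93 ± 1.07 to -9.41 ± 0.49, and Eno2 to Eno1 from -7.71 ± 0.36 to -11.02 ± 0.36. The smallest difference among the pairs without overlap was that of Slc2a3 to Slc2a1, at 0.15. Hk2 to Hk1, Pfkm to Pfkl, Pfkfb4 to Pfkfb3 and Eno3 to Eno2 overlapped.

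**Figure D3:**
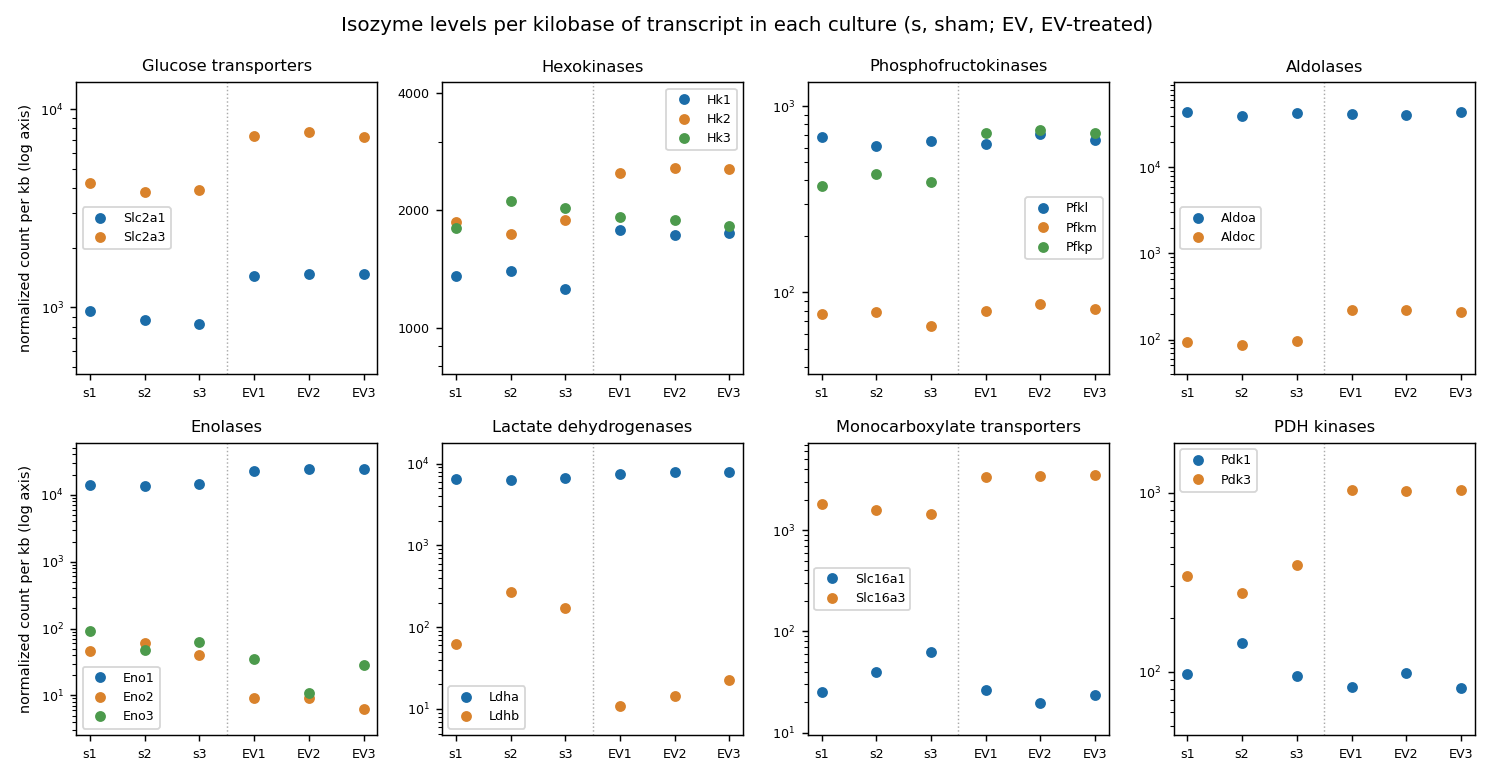
Normalized counts per kilobase of transcript (vertical axes, log scale) of the isozymes of 8 steps in each sham-treated (s1 to s3) and EV-treated (EV1 to EV3) sample. Pfkp passes Pfkl in the EV-treated samples, Hk2 separates upward from Hk3, and the scarce forms Eno2, Eno3 and Ldhb lie lower in EV-treated samples while Eno1 and Ldha lie higher.

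Ldhb and Eno2, the called members with the largest falls, were scarce, and macrophage markers moved in the same direction. Ldhb was 10.3-fold and Eno2 5.94-fold lower in EV-treated samples, and the macrophage marker sum without Adgre1 was 3.66-fold lower. Sham replicate 1 was the lowest sham-treated sample for Ldhb, Slc16a1 and the macrophage marker sum. Sham replicate 2 was the highest for Ldhb, Eno2 and that sum. Sham replicate 3 was the lowest for Eno2 (111) and the highest for Slc16a1 (279). Of these genes, only Ldhb kept the order of the macrophage marker sum. Eno3 had the reverse order, with its highest sham value in replicate 1. Without sham replicate 1 the log2 fold change of Ldhb was -3.75 and without sham replicate 2 it was -2.86, and that of Eno2 ranged from -2.69 to -2.38 over all samples left out in turn. The eosinophil marker sum was 1.33-fold and the basophil and mast cell marker sum 2.25-fold higher in EV-treated samples, in the direction of the members that rose. The part of macrophage, eosinophil or basophil content in these results was not tested.

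**Figure D4:**
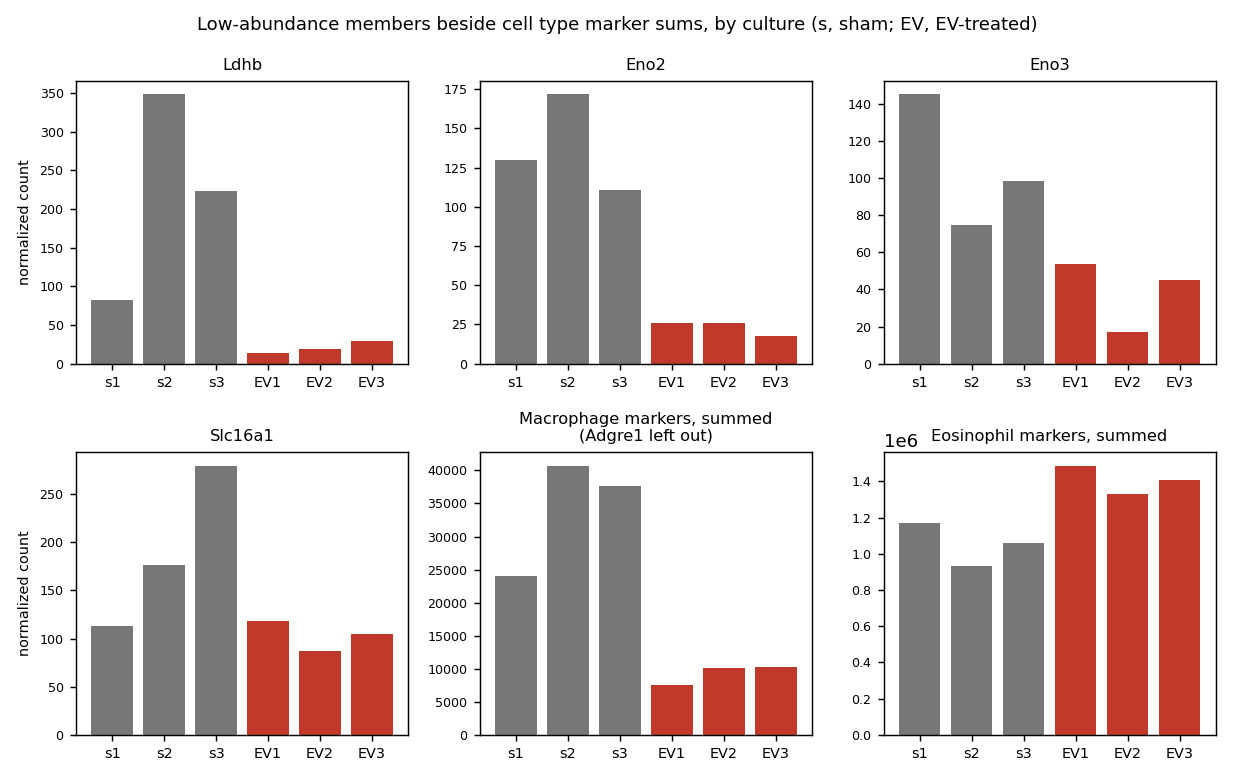
Normalized counts (vertical axes, from 0) of Ldhb, Eno2, Eno3 and Slc16a1 beside the summed macrophage markers without Adgre1 and the summed eosinophil markers, with 1 bar per sham-treated (grey) or EV-treated (red) sample. The macrophage sum lies between 24040 and 40705 in sham- and between 7520 and 10291 in EV-treated samples, while the eosinophil sum is higher in every EV-treated sample.

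The 33 members together summed to 431827 to 447000 normalized counts in sham- and 493852 to 518548 in EV-treated samples. As a share of all counts in a library, which no scaling touches, they took 1.49% to 1.52% in sham- and 1.53% to 1.58% in EV-treated samples, ranges that barely separate. Per kilobase, Aldoa, Gapdh and Pkm held the first 3 places in both groups, and Slc16a1, Eno2 and Eno3 the last 3 in sham-treated samples.

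Some members share sequence with near copies, among which the authors' quantification could split reads. Of the 14 members called, 4 shared over 10% of their 31-base words with other genes in GENCODE vM21 transcripts, namely Gapdh (27.2%), Eno1 (28.5%), Ldha (19.6%) and Ldhb (33.02%). The main partners of Eno1 and Gapdh in the count table, Eno1b and Gm7336, averaged 13.8 and 14.4 normalized counts in sham- and 23.7 and 42.7 in EV-treated samples, and neither passed. The main partners of Ldha and Ldhb, Gm5452 and Gm5514, were absent from the count table, so their levels could not be followed. Pgk1, Pgam1 and Pkm shared 54.7%, 37.1% and 34.7% of their words.

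Genes of neighbouring carbohydrate pathways and further isozymes and carriers, none of them members, were counted in the same way. Of 71 listed, 64 were in the table and 61 were tested. Of these, 5 rose (8.2%), 15 fell (24.6%) and 41 did not pass, against 12.1% higher and 11.6% lower over all genes tested. Their median log2 fold change was -0.14. The lower count was 9 without sham replicate 3 and also 9 without any 1 of the EV replicates. Hif1a, encoding the oxygen-regulated subunit of the factor that activates many glycolytic genes, had 5133, 5044 and 5033 normalized counts in sham- and 10144, 10532 and 10492 in EV-treated samples. With groups this tight and this far apart, its log2 fold change was 1.04 (standard error 0.0527, adjusted p = 4.82e-07, edgeR), whereas its partner Arnt did not pass (adjusted p = 0.457). Pygl, the liver-type glycogen phosphorylase, rose from 30286 ± 1304 to 50140 ± 851 (SD, n = 3) and Slc2a6, a member of the glucose transporter family, from 498 ± 40.1 to 1153 ± 112. Txnip, which promotes internalization of GLUT1, also rose, from 10540 ± 444 to 16930 ± 1066 (log2 fold change 0.68, adjusted p = 1.97e-05, edgeR). Myc, the remaining gene that rose, rose by 0.85 on the log2 scale (adjusted p = 0.000976, edgeR).

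Among related genes that fell, Slc16a7, encoding the monocarboxylate transporter MCT2, went from 400 ± 30.6 to 82.1 ± 17.8, and Dlat, a core subunit of pyruvate dehydrogenase, from 1141 ± 108 to 635 ± 41.8 normalized counts (SD, n = 3). For both genes the EV-treated samples lay wholly below the sham-treated ones. Bsg, the chaperone of MCT1 and MCT4, had a log2 fold change of 0.20 and H6pd, the glucose-6-phosphate dehydrogenase of the endoplasmic reticulum, one of -0.23, and neither passed (adjusted p = 0.0648 and 0.0256, edgeR). By subgroup, 4 regulators and other isozymes rose and 4 fell of 16 tested, and 2 pyruvate oxidation genes fell of 12. Of 11 glycogen genes 1 rose and 2 fell, and of 8 other pentose phosphate and NADPH genes 4 fell. Of 14 genes of the hexose and redox branches, 3 fell. The shares over all genes tested were 12.1% higher and 11.6% lower, and these small subgroups were not tested against them. Tigar, singled out after its values were seen because its product lowers fructose-2,6-bisphosphate, had 105, 130 and 109 in sham- and 19.0, 17.1 and 36.6 in EV-treated samples (log2 fold change -2.24, adjusted p = 0.00152, edgeR).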

How the data were processed

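RNA was sequenced from poly(A)-selected libraries of 3 sham- and 3 EV-treated eosinophil samples, grouped and numbered by their labels. The authors used FastQC, cutadapt and Salmon with mm10 per the labels, and deposited estimated counts per gene symbol, not all whole. Tool versions, annotation and strandedness are not given in the sources used here. Their deposited normalized counts and table of the DESeq2 comparison (fold changes and p-values) were not used.

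Estimated counts were rounded and analysed in R 4.3.3 with edgeR 4.0.16 (TMM scaling, filterByExpr, quasi-likelihood test, Benjamini-Hochberg adjustment over 13498 genes, threshold 0.01). Normalized counts are counts over TMM-scaled library sizes. Standard errors are the absolute log2 fold change over the square root of F. Log2 ratios used a pseudocount of 0.5. Lengths are those of the longest principal GENCODE vM21 transcript. The tests were checked on simulated counts. DESeq2 1.42.0, limma 3.58.1 (voom), other scalings, no filter, the replicate block and leaving out each sample gave the alternatives. Members and lists were chosen with earlier results of these data known. All members were to be described, with values per sample for called members and their isozymes. Of the related list, the 3 smallest adjusted p in each direction and Hif1a, Txnip, Bsg and H6pd were to be named. Myc, Arnt, Tigar, Pdk2 and Pdk4 were added after their values were seen. The result of 1 gene under this rule is not reported here. Replicates differed by more than sampling noise, with a chi-square per gene of 8.37 to 31.8.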

Additional observations from a re-analysis of the deposited data

How the results depend on the processing

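The member counts were 9 to 13 higher and 2 to 4 lower over other scalings, no filter, DESeq2, limma-voom and the replicate block, and 10 to 12 higher and 3 to 4 lower with each sample left out. When the absolute log2 fold change also had to reach 1, 3 members and 2 related genes were higher and 5 related genes lower. At an adjusted p under 0.05, 9 related genes were higher. The related genes called lower ranged from 9 to 14 with each sample left out. Where 1 sample of a group is left out, fewer samples enter the test. The median log2 fold change of the members ranged from 0.113 to 0.170 over the samples left out and was -0.0073 without scaling between libraries, which lowered the median of all genes to -0.163. Members near 0 that were not called, such as Gpi1, Pfkl, Pkm, Rpia and Taldo1, changed sign without scaling. Of the called members, Hk1, Ldha and Ldhb missed the threshold under at least 1 alternative.

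Replicate numbers are shared by the groups. Deviations from the group means correlated across genes with r = 0.117, 0.0846 and 0.0371 for same-numbered samples. For samples of different numbers r ran from -0.116 to 0.0487. The labels do not say whether same-numbered samples share a culture, so the replicate block was kept as an alternative. With the replicate block, 12 members were higher and 4 lower, Tpi1 (adjusted p = 0.00725, edgeR) and Eno3 (adjusted p = 0.008) passed, the median was 0.143, and 1794 genes were higher and 1781 lower overall. Depth limits Eno2, with 20 to 30 counts per EV-treated library, and Ldhb, with 14 to 34.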
